A study of Homo sapiens with 47 samples.

Results

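The genes of MHC class I presentation were followed in the RNA-seq counts of wild-type and EAF1-mutant HEK293T cells. Their 9 members were chosen by gene symbol, namely the heavy chain genes HLA-B, HLA-C, HLA-E and HLA-F, the light chain gene B2M, the peptide transporter genes TAP1 and TAP2, the loading factor gene TAPBP and the regulator gene NLRC5, out of 58395 genes in the count table. HEK293T is a human embryonic kidney cell line. The EAF1-mutant cells are a line made from it by CRISPR knock-in, in which alanines replace residues of the MED26-binding site of EAF1, a subunit of complexes that help RNA polymerase II to elongate. The study made this line to separate Mediator from the little elongation complex. As the mutant is a line grown from a cell clone, a property of the clone and an effect of the mutation cannot be told apart. Total RNA was depleted of ribosomal RNA and sequenced from stranded, paired-end libraries, 3 of each line, with no treatment of either. The study's methods state 3 or more biological replicates for its experiments in general, while the labels do not say how the 3 libraries of a line were grown, so p-values measure the spread between libraries. Counts totaled 59137210, 52541541 and 55637032 in the wild-type libraries and 57198018, 53369621 and 66611451 in the EAF1-mutant ones. Since the mutation replaces residues and leaves the gene in place, the RNA of EAF1 does not check the labels.

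The labelled cell type was set against marker genes. All 8 HEK293T markers passed the filter on low counts, and their summed level was 555, 563 and 585 CPM (counts scaled to a common library size with TMM factors for composition) in the wild-type libraries and 401, 401 and 410 CPM in the EAF1-mutant ones. VIM, which encodes the intermediate filament vimentin, had the highest level per length among them and went from a mean of 380 to 199 CPM, a larger fall than that of the sum. By the rule for calls given below, NEFM was also lower (log2 fold change -1.31), GATA3 (-0.50) and NEFL (-0.15) passed the test below the fold limit, and the keratin genes KRT8 and KRT18 were called higher. VIM and GATA3 both lie on chromosome 10, and the part of location in their falls was not tested. Of 8 white blood cell markers, PTPRC, CD3E, MS4A1 and LYZ lay under the filter, and the list summed to 3.64, 3.54 and 3.31 CPM in wild-type cells and 3.68, 3.74 and 3.98 CPM in EAF1-mutant cells. None of the 4 endothelial markers passed the filter. The 6 fibroblast markers summed to 7.41, 7.46 and 8.13 CPM in wild-type cells and 10.0, 9.59 and 9.27 CPM in EAF1-mutant cells, with COL1A1 as the most abundant per length in wild-type and PDGFRA in EAF1-mutant cells, and with DCN and COL1A2 under the filter. The 4 tested ones did not move together: COL1A1 and PDGFRA were called higher, COL3A1 (log2 fold change -2.18) and LUM (-3.53) were called lower, and their median was -0.82. The part of these shifts in the results on class I genes was not tested. In bulk RNA, fewer cells of a type and less RNA per cell cannot be told apart.

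MHC class I molecules show peptides from inside the cell to T cells and natural killer cells. The proteasome cuts proteins into peptides, the TAP1 and TAP2 transporter carries them into the endoplasmic reticulum, and tapasin, the product of TAPBP, bridges the transporter and an empty heavy chain bound to beta-2-microglobulin until a peptide is loaded. NLRC5 is a transactivator that acts at class I promoters with the RFX, CREB and NF-Y factors, and interferons raise the expression of most genes of the pathway.

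Class I presentation genes did not move as a block in EAF1-mutant cells. TAPBP nearly doubled, TAP1 and B2M rose by smaller amounts, HLA-C and HLA-B fell, and HLA-E, HLA-F, TAP2 and NLRC5 did not pass the test. A call needed a log2 fold change beyond 0.5 in either direction together with an adjusted p below 0.01 (edgeR's quasi-likelihood test, Benjamini-Hochberg adjustment over the 28025 genes that passed the filter); SE below is the standard error of a log2 fold change. All 9 members passed that filter. Of them, 1 was called higher, against 11% of all tested genes, and 0 were called lower, against 9.36%. DESeq2 also called 0 members lower. At an unadjusted p under 0.05, 4 members were higher (28.5% of all tested genes) and 3 were lower (27.8%). At an adjusted p under 0.01 with no fold limit, 3 of 9 were higher (20.5% of all tested genes) and 2 of 9 were lower (21.1%). The values of the groups did not overlap for 6 of 9 members, against 57.3% of all tested genes. As shares these are 11.1% called higher and 66.7% without overlap, both near the background. The median log2 fold change of the members was -0.10, and that of all tested genes was 0.01. The members' median turned to 0.055 without wild-type replicate 1 and to 0.016 with library totals alone or with a filter of at least 1 CPM in at least 3 libraries, and it was -0.016 without EAF1-mutant replicate 3, so its sign was not stable. Library totals in place of TMM factors moved the median of all tested genes to 0.13, and the fold changes below rise by a similar amount with it. Over all genes the calls were 3071 higher and 2624 lower with TMM factors, and 4169 higher and 1840 lower with library totals alone.

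**Figure D1:**
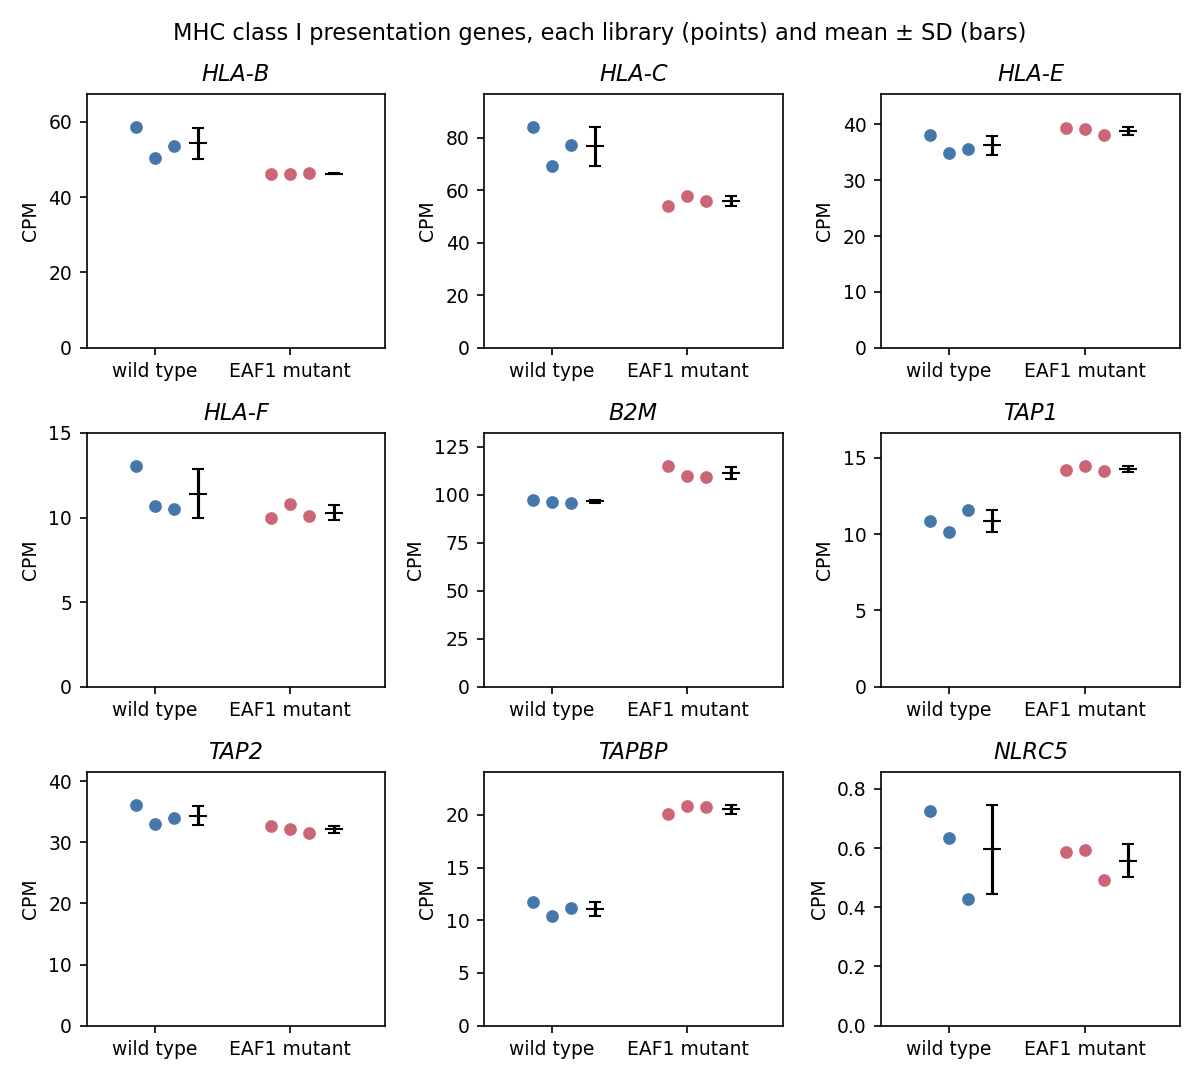
Level of each of the 9 genes in CPM (vertical axes, each from 0) in the 3 wild-type and 3 EAF1-mutant libraries; points are libraries and bars the mean with its SD. TAPBP lay at 10.4 to 11.7 CPM in wild-type and 20.05 to 20.8 CPM in EAF1-mutant libraries, while the NLRC5 groups overlapped below 1 CPM.

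Levels were compared between genes as CPM per kb of annotated exon. In wild-type cells B2M stood first at 30.9 ± 0.261 CPM per kb (SD, n = 3) and HLA-C next at 30.6 ± 2.99, and the libraries of these neighbors overlapped. HLA-E at 12.4 ± 0.586 and HLA-B at 11.7 ± 0.906 CPM per kb overlapped as well. TAP2 followed at 3.32 ± 0.157, HLA-F at 2.64 ± 0.333 and TAP1 at 2.29 ± 0.152 CPM per kb, of which HLA-F and TAP1 overlapped. TAPBP reached 1.67 ± 0.101 and NLRC5 0.0481 ± 0.0122 CPM per kb, each apart from its neighbors. In EAF1-mutant cells the order was B2M at 35.7 ± 1.04, HLA-C at 22.3 ± 0.762, HLA-E at 13.3 ± 0.254 and HLA-B at 9.99 ± 0.0332 CPM per kb, all apart from each other. TAP2 at 3.10 ± 0.0550, TAPBP at 3.09 ± 0.0648 and TAP1 at 3.01 ± 0.0390 CPM per kb then lay together with overlapping libraries. HLA-F at 2.38 ± 0.106 and NLRC5 at 0.0450 ± 0.00459 CPM per kb came last. By this measure the transporter and tapasin genes, at distinct levels in wild-type cells, lay within the replicate spread of each other in the mutant. The lengths join all annotated exons of a gene, which gave 10357 bases for TAP2, 6648 for TAPBP and 4738 for TAP1. Which transcripts these cells make was not tested. The order between genes depends on these lengths, and the SDs do not include their error.

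NLRC5 (ENSG00000140853, chromosome 16, 56989485 to 57083531 in GRCh38), the class I transactivator, was barely expressed. Its level was 0.725, 0.633 and 0.430 CPM in wild-type libraries and 0.588, 0.594 and 0.492 CPM in EAF1-mutant ones. The groups overlapped, and the lowest and the highest value both came from wild-type cells. These levels rest on 41, 32 and 23 counts and on 35, 33 and 34 counts. The log2 fold change was -0.11 (SE 0.24, Benjamini-Hochberg adjusted p = 0.743, edgeR's quasi-likelihood test). The 95% interval of the ratio of EAF1-mutant to wild-type level ran from 0.671 to 1.29, so ratios within these bounds are not excluded. Its sign was positive with library totals alone (0.010) and without wild-type replicate 1 (0.055).

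Among the heavy chains, the classical chains HLA-C and HLA-B, which present peptides to T cells, fell. HLA-C (ENSG00000204525, chromosome 6, 31268749 to 31272130) had 84.0, 69.1 and 77.1 CPM in wild-type libraries and 53.8, 57.6 and 56.0 CPM in EAF1-mutant libraries. Every EAF1-mutant library lay below every wild-type one. The log2 fold change was -0.46 (SE 0.05, Benjamini-Hochberg adjusted p = 1.02e-07, edgeR's quasi-likelihood test), under the size limit for a call. Without wild-type replicate 2, the lowest wild-type library, it was -0.54 and HLA-C was called. HLA-B (ENSG00000234745, chromosome 6, 31353872 to 31367067) had 58.7, 50.4 and 53.7 CPM in wild-type cells and 46.1, 46.1 and 46.4 CPM in EAF1-mutant cells. Its groups did not overlap, and the EAF1-mutant libraries were close together, with an SD of 0.154 CPM. HLA-B fell by 0.23 on the log2 scale (SE 0.05, Benjamini-Hochberg adjusted p = 2.23e-04, edgeR's quasi-likelihood test), but with library totals alone the log2 fold change was -0.12 and did not pass (Benjamini-Hochberg adjusted p = 0.0368, against a range of 1.68e-06 to 0.0368 over the alternatives).

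The nonclassical chains did not pass the test. HLA-E (ENSG00000204592, chromosome 6, 30489509 to 30494194), which shows leader peptides of other class I chains to natural killer cell receptors, had 38.2, 35.0 and 35.6 CPM in wild-type cells and 39.4, 39.2 and 38.0 CPM in EAF1-mutant cells. The highest wild-type library lay within the EAF1-mutant range. Its log2 fold change was 0.10 (Benjamini-Hochberg adjusted p = 0.0656, edgeR's quasi-likelihood test), and with library totals alone it was 0.21 and passed (Benjamini-Hochberg adjusted p = 2.31e-04, against a range of 2.31e-04 to 0.285 over the alternatives). HLA-F (ENSG00000204642, chromosome 6, 29722775 to 29738528), a nonclassical chain that is also found in open form without peptide, had 13.1, 10.7 and 10.5 CPM in wild-type cells and 9.96, 10.8 and 10.1 CPM in EAF1-mutant cells. The groups overlapped, and wild-type replicate 1 stood above the other libraries. Its log2 fold change was -0.15 (Benjamini-Hochberg adjusted p = 0.0962, edgeR's quasi-likelihood test), and without that library it was -0.056.

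The 4 heavy chain genes were also counted as a sum, in which a read given to the wrong gene of the 4 still counts once. The sum was 194, 165 and 177 CPM in wild-type libraries and 149, 154 and 150.5 CPM in EAF1-mutant ones. The groups did not overlap. The sum fell by 0.24 on the log2 scale (SE 0.05, Benjamini-Hochberg adjusted p = 9e-05, edgeR's quasi-likelihood test). With library totals alone it was -0.13 and did not pass (Benjamini-Hochberg adjusted p = 0.0205, against a range of 5.5e-10 to 0.0205 over the alternatives). HLA-C took a smaller share of the sum and HLA-E a larger one, while the level of HLA-E itself did not pass the test. HLA-C made up 43.3%, 41.8% and 43.6% of the heavy chain counts in wild-type libraries and 36.0%, 37.5% and 37.2% in EAF1-mutant libraries. HLA-E made up 19.7%, 21.2% and 20.1% in wild-type libraries and 26.4%, 25.5% and 25.3% in EAF1-mutant libraries. For both genes the groups did not overlap, while HLA-B stayed at a mean of 30.4 ± 0.135% (SD, n = 3) and 30.6 ± 0.504% (SD, n = 3). These shares are taken within a library and do not depend on the scaling, and they were not tested.

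The light chain moved the other way. B2M (ENSG00000166710, chromosome 15, 44711358 to 44718851), whose product pairs with every class I heavy chain, had 97.5, 96.3 and 95.9 CPM in wild-type cells and 115, 110.0 and 109 CPM in EAF1-mutant cells. All EAF1-mutant libraries lay above the wild-type ones, which had an SD of 0.816 CPM. B2M rose on the log2 scale by 0.21 (SE 0.04, Benjamini-Hochberg adjusted p = 5.49e-05, edgeR's quasi-likelihood test), a ratio of 1.154 with a 95% interval of 1.10 to 1.21. The number of heavy chain counts per B2M count was 1.99, 1.71 and 1.84 in wild-type libraries and 1.30, 1.40 and 1.38 in EAF1-mutant libraries. Each EAF1-mutant ratio lay below each wild-type ratio. The difference was -0.45 on the log2 scale (two-sided exact permutation p = 0.1, the smallest that 3 against 3 libraries allow). This ratio was chosen after the values were seen, and it is free of the library scaling.

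**Figure D2:**
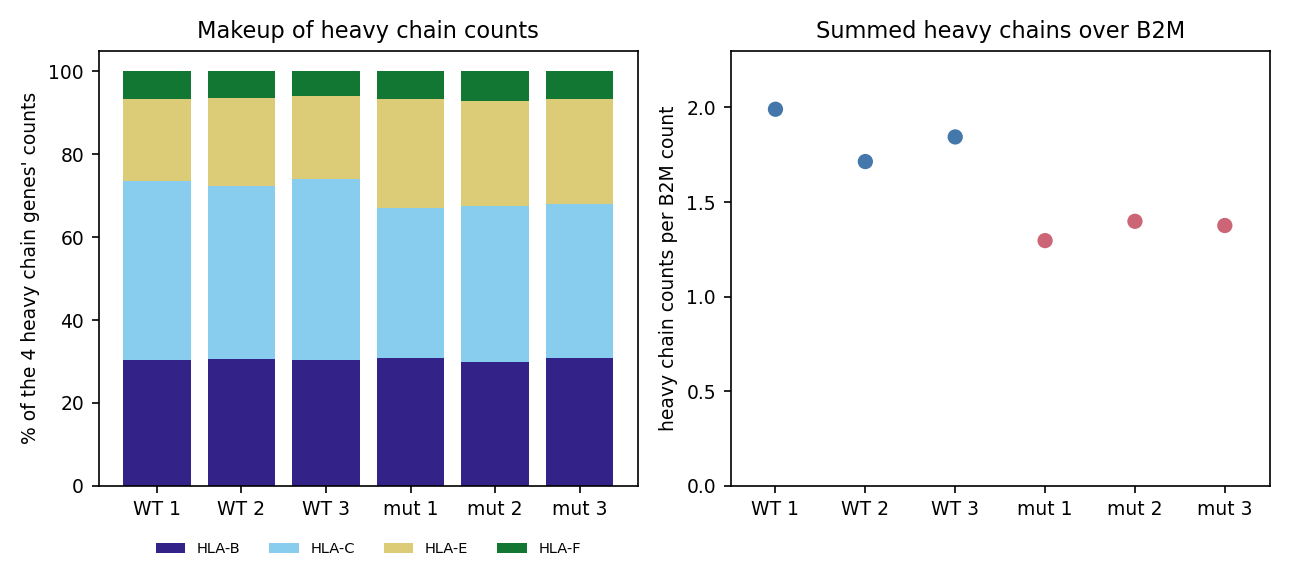
Left, the share of the 4 heavy chain genes' counts that each gene took in every library (stacked bars, percent); right, summed heavy chain counts per B2M count in every library (points). HLA-C took 41.8% to 43.6% of wild-type and 36.0% to 37.5% of EAF1-mutant heavy chain counts, and the ratio to B2M fell from 1.71 to 1.99 in wild-type libraries to 1.30 to 1.40 in EAF1-mutant libraries.

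The transporter genes differed from each other. TAP1 (ENSG00000168394, chromosome 6, 32845209 to 32853816) had 10.9, 10.1 and 11.6 CPM in wild-type cells and 14.2, 14.5 and 14.1 CPM in EAF1-mutant cells. The groups did not overlap. TAP1 rose on the log2 scale by 0.39 (SE 0.06, Benjamini-Hochberg adjusted p = 8.3e-06, edgeR's quasi-likelihood test), and with library totals alone the value was 0.51 and TAP1 was called. TAP2 (ENSG00000204267, chromosome 6, 32821833 to 32838739) had 36.2, 33.0 and 34.0 CPM in wild-type cells and 32.6, 32.3 and 31.5 CPM in EAF1-mutant cells. The groups were apart by a small margin. Its log2 fold change of -0.10 did not pass (Benjamini-Hochberg adjusted p = 0.0693, edgeR's quasi-likelihood test) and turned to 0.02 with library totals alone. The products of TAP1 and TAP2 work as a pair, and there were 0.300, 0.307 and 0.340 TAP1 counts per TAP2 count in wild-type libraries and 0.436, 0.449 and 0.448 in EAF1-mutant libraries. The ratio was higher in each EAF1-mutant library than in each wild-type one. On the log2 scale it rose by 0.50 (two-sided exact permutation p = 0.1, the smallest possible), a comparison also chosen after the values were seen.

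TAPBP (ENSG00000231925, chromosome 6, 33299694 to 33314284), which encodes tapasin, showed the largest change among the members. It had 11.7, 10.4 and 11.2 CPM in wild-type cells and 20.05, 20.8 and 20.8 CPM in EAF1-mutant cells. The lowest EAF1-mutant library was far above the highest wild-type library relative to the spread of either group. TAPBP rose on the log2 scale by 0.89 (SE 0.06, Benjamini-Hochberg adjusted p = 5.47e-12, edgeR's quasi-likelihood test), a ratio of 1.85 with a 95% interval of 1.71 to 2.00. It was called under all 11 other settings of the fit, scaling, filter and libraries, with log2 fold changes of 0.83 to 1.00.

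**Figure D3:**
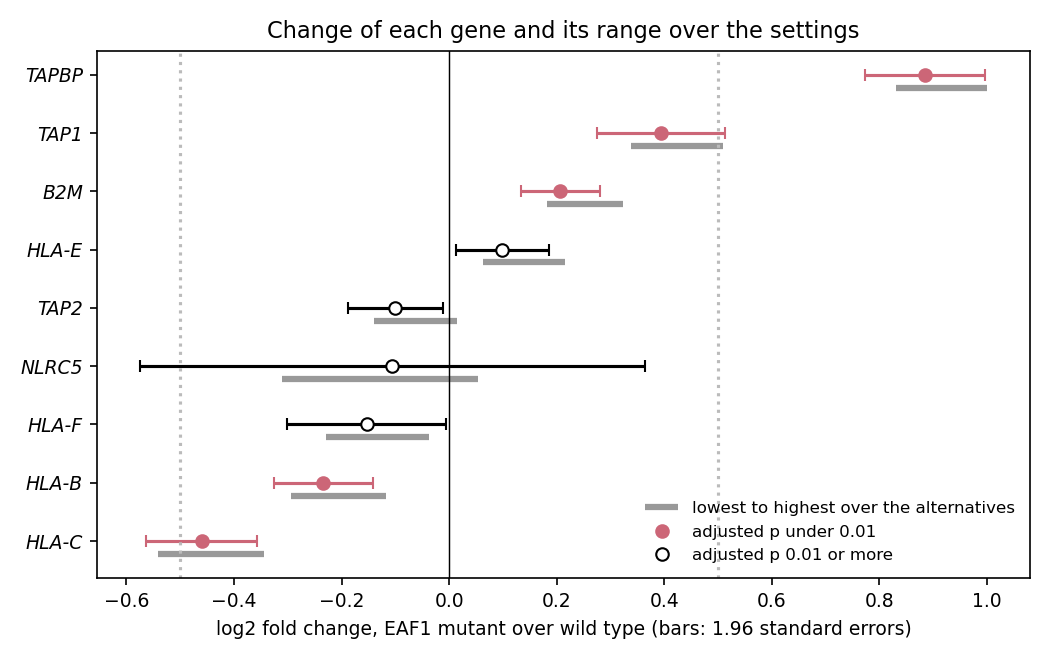
Log2 fold change of each gene in EAF1-mutant over wild-type cells (points, with bars of the 95% interval) and its lowest to highest value over the alternative settings (gray bars). Dotted lines mark 0.5 in size; TAPBP at 0.89 lay beyond them under every setting, and HLA-C at -0.46 and TAP1 at 0.39 each crossed them under 1 setting.

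Promoters are shown for the 5 members that passed the test, as these are the ones whose RNA rose or fell. They run from 250 bases before to 50 after the RefSeq start in GRCh38.p14. The set of promoters used here held 7 of 9 members, without HLA-E and NLRC5. HLA-B lies at chr6:31357130-31357429, HLA-C at chr6:31272043-31272342, TAP1 at chr6:32852712-32853011 and TAPBP at chr6:33314029-33314328, all on the minus strand, and B2M at chr15:44711267-44711566 on the plus strand. The windows of HLA-B and TAP1 lie wholly inside the gene spans given above, whose upstream ends are at 31367067 and 32853816. Which start these cells use was not tested. Capitals mark letters that match any of 4 motifs searched on both strands, where matches may overlap. The motifs were CCAAT (the CCAAT box read by NF-Y), TTTCNNTTT (like the interferon-stimulated response element), TTCNNNGAA (like the gamma-activated sequence) and TGACG (a partial cyclic AMP response element). These 4 were settled after matches of an earlier search had been seen: the second motif was longer then, and a kappa B-like motif that matched most promoters, of the members and of all genes alike, was dropped, both because of pattern length.
HLA-B: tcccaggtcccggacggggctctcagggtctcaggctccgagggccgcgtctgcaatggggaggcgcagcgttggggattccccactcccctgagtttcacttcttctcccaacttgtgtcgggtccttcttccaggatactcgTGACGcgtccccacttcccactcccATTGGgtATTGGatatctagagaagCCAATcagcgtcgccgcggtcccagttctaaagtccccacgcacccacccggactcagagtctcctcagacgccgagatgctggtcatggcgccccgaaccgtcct
HLA-C: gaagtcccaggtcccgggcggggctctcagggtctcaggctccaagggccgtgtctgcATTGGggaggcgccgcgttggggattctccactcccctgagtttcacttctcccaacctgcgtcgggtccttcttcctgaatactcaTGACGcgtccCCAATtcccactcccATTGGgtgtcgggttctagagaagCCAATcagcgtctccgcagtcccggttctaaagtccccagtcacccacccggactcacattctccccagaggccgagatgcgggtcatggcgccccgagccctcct
B2M: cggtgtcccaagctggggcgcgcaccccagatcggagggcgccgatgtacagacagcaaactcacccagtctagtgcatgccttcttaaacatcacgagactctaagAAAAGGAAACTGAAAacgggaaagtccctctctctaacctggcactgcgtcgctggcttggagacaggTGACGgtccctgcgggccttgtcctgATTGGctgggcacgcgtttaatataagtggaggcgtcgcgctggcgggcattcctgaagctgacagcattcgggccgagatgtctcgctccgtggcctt
TAP1: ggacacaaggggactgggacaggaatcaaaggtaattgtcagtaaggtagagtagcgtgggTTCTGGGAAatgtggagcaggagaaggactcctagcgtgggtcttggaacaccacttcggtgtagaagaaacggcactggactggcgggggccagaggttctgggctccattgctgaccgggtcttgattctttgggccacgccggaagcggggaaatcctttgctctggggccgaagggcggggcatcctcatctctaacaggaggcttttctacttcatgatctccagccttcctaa
TAPBP: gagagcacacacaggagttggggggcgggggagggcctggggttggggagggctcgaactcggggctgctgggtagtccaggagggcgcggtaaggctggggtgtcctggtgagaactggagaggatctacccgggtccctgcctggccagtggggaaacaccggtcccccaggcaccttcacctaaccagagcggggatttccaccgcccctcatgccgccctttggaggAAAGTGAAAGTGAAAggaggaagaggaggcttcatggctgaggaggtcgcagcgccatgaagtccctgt
Of 35116 promoters of the same length, 34.6% held CCAAT, 10.5% TTTCNNTTT, 7.66% TTCNNNGAA and 24.6% TGACG. The promoters of HLA-B and HLA-C, which fell, were alike at 269 of 304 aligned positions (88.5%), with 3 and 4 matches to CCAAT and 1 match each to TGACG. B2M held 1 match each to CCAAT and TGACG and 2 to TTTCNNTTT. The TAPBP window held 2 matches to TTTCNNTTT, and that of TAP1 held 1 to TTCNNNGAA. Of members that did not pass, HLA-F held 2 matches to CCAAT and 1 to TTTCNNTTT, and TAP2 held 1 each to TTTCNNTTT and TGACG. A match describes the letters only.

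Other genes can take or lend reads to some members, and no source used here says how strand or multi-mapping reads were treated in counting. Of the 100-base windows in the annotated transcripts of HLA-C, 0.13% also occurred in transcripts of another counted gene, and of HLA-E 0.5%. No such window was found for HLA-F, B2M, TAP1, TAPBP or NLRC5. For HLA-B the share was 23.9%, with the overlapping pseudogene DHFRP2, whose counts came to 0.0174% of those of HLA-B. For TAP2 it was 17.5%, with a longer gene on the same strand (ENSG00000250264) that held 57.3% as many counts and had a log2 fold change of -0.10. On the opposite strand, a pseudogene (ENSG00000271581) overlaps HLA-B with 17.6% as many counts and a log2 fold change of -0.15 that did not pass. HLA-F is overlapped there by HLA-F-AS1 with 36.1% as many counts and a pseudogene (ENSG00000225864) with 11.8%, and PSMB8-AS1 overlaps TAP1 with 22.6% as many and a log2 fold change of 0.36 (Benjamini-Hochberg adjusted p = 0.0106, edgeR's quasi-likelihood test). Every other overlapping gene had at most 3.11% as many counts as its member. The counts of HLA-B, HLA-F, TAP1 and TAP2 are therefore uncertain, by an amount that was not measured. No annotated gene overlaps TAPBP or B2M. Reads of HLA alleles that differ from the reference may map less well, which was not tested.

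The 7 members on chromosome 6 lie in the MHC, a gene-dense region of the short arm. Of 194 other tested genes from the start of HLA-F to that of TAPBP, 39 were called higher (20.1%, against 11% of all tested genes) and 3 lower (against 9.36%), with a median log2 fold change of 0.15. Without the 12 genes whose symbols begin with HLA-D, of which 11 encode class II chains and 1 is a noncoding antisense gene, 28 of 182 were called higher (15.4%) and the median was 0.11. The arm medians were 0.08 over 777 tested genes of 6p, -0.11 over 1093 of 15q, where B2M lies, and -0.05 over 617 of 16q, where NLRC5 lies. Among called genes of the region with a mean of at least 1 CPM over the groups, HLA-DQB2, LY6G6F-LY6G6D and HLA-DOA rose most. HLA-DQB2, a class II beta chain gene, had 1, 5 and 1 counts in wild-type libraries and 1014, 978 and 1212 counts in EAF1-mutant libraries. It went from near absence to 17.4 ± 0.314 CPM (SD, n = 3), and the log2 fold change of 8.57 (SE 0.17) is imprecise in the denominator. HLA-DOA, a regulator of class II peptide loading, had 0.884, 0.574 and 0.710 CPM in wild-type cells and 6.13, 5.77 and 5.503 CPM in EAF1-mutant cells, without overlap. LY6G6F-LY6G6D, a readthrough gene, rose by 3.10 on the log2 scale (SE 0.22). LY6G6D, which it overlaps, rose by 3.14 (SE 0.23), and reads shared between them were not measured. The 3 called lower were the snoRNA gene SNORD48 (log2 fold change -0.60, SE 0.12), the zinc finger gene PRR3 (-0.56, SE 0.05) and the tubulin gene TUBB (-0.50, SE 0.03). TUBB had 1392, 1400.5 and 1428 CPM in wild-type libraries and 987, 995 and 995 CPM in EAF1-mutant libraries.

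Some genes beside TAPBP rose as well. Within 100 kb of its start, on either side, 17 other genes were tested, of which 4 were called higher (against 11% of all tested genes) and 9 passed at an adjusted p under 0.01, all of these 9 higher in EAF1-mutant cells (against 20.5%), with a median of 0.28 for the 17. This window was chosen after the values were seen. RGL2, a guanine nucleotide exchange factor gene on the same strand, begins 15.3 kb downstream of the TAPBP start, just past the end of TAPBP. Reads that span both genes were not measured. RGL2 had 12.9, 13.3 and 12.3 CPM in wild-type cells and 23.98, 26.3 and 26.6 CPM in EAF1-mutant cells. The groups did not overlap, and its log2 fold change of 1.00 (SE 0.06, Benjamini-Hochberg adjusted p = 4.1e-13, edgeR's quasi-likelihood test) was as large as that of TAPBP or larger. VPS52, a subunit gene of a complex that tethers endosomal vesicles to the Golgi, rose by 0.69 (SE 0.04), the noncoding HCG25 by 0.70 (SE 0.05) and PHF1, a Polycomb accessory factor gene, by 0.56 (SE 0.06). ZBTB22 and DAXX, which begin upstream at -3.66 and -8.73 kb, rose by 0.39 (SE 0.06) and 0.31 (SE 0.04). Between RGL2 and VPS52, WDR46 did not pass, with a log2 fold change of 0.07 (SE 0.04), so the genes of the window differed among themselves.

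**Figure D4:**
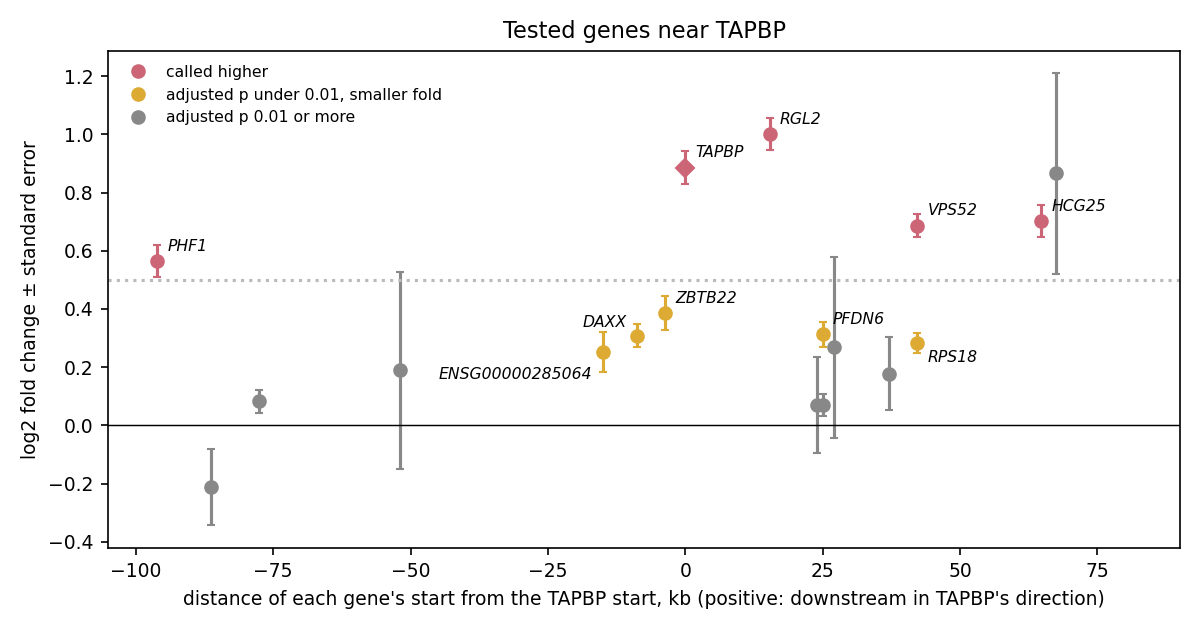
Log2 fold change with its standard error (vertical axis) of TAPBP (diamond) and the 17 other tested genes that begin within 100 kb of its start (horizontal axis, kb), colored by call. RGL2 at 1.00 and TAPBP at 0.89 stood highest among genes that passed the test, and KIFC1 at 0.08 and WDR46 at 0.07 did not pass.

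The pathway lists below stand against 20.5% of all tested genes that rose and 21.1% that fell at an adjusted p under 0.01, and for calls, with the fold limit, against 11% called higher and 9.36% called lower. Among genes that make or trim the peptides, 7 of 8 passed the filter. Of these 7, 4 fell and 1 rose at an adjusted p under 0.01, and 2 were called lower, with a median log2 fold change of -0.41. PSMB10, a catalytic subunit of the immunoproteasome, had 17.8, 16.3 and 17.4 CPM in wild-type cells and 10.2, 10.2 and 10.1 CPM in EAF1-mutant cells, without overlap, and fell by 0.76 on the log2 scale (SE 0.06). PSME2, a subunit of the proteasome activator PA28, had 32.6, 31.4 and 32.3 CPM in wild-type cells and 22.2, 22.2 and 23.3 CPM in EAF1-mutant cells and fell by 0.51 (SE 0.05). Its partner PSME1, the most abundant gene of the list per length, fell by 0.42 (SE 0.05). PSME1 and PSME2 both lie on chromosome 14, as does PSMB5 below. No arm median was taken for chromosome 14 here, and the part of location in these falls was not tested. ERAP1, which trims peptides inside the endoplasmic reticulum, rose by 0.29 (SE 0.05). The other catalytic immunoproteasome genes were nearly silent: PSMB8 lay under the filter, and PSMB9, which overlaps TAP1 on the opposite strand, stayed below 0.5 CPM in every library and did not pass (Benjamini-Hochberg adjusted p = 0.135, edgeR's quasi-likelihood test). Among the standard subunits that those of the immunoproteasome replace, PSMB5 fell by 0.41 (SE 0.04), PSMB7 had a log2 fold change of 0.18 (SE 0.04) and passed, and PSMB6 did not pass at 0.03 (SE 0.04).

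Of 6 loading and folding factor genes, 2 fell at an adjusted p under 0.01, with log2 fold changes under 0.5 in size. These were TAPBPL, a relative of tapasin that edits peptides, at -0.43 (SE 0.09), and PDIA3, the disulfide isomerase of the loading complex, at -0.22 (SE 0.04). The chaperone gene CALR, the most abundant of the list per length at 168 CPM per kb in wild-type and 159 CPM per kb in EAF1-mutant cells, did not pass (log2 fold change -0.08, SE 0.04). Tapasin and its relative thus changed in opposite directions.

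Among 11 tested genes of other class I and class I-like chains, 3 were called higher (against 11% of all tested genes) and 1 lower (against 9.36%), and the median log2 fold change was 0.31. CD1D, which presents lipids, had 1.26, 1.19 and 1.51 CPM in wild-type cells and 1.98, 2.64 and 2.24 CPM in EAF1-mutant cells and rose by 0.79 (SE 0.15). MICB, a stress-induced ligand of the natural killer receptor NKG2D, rose by 0.77 (SE 0.09), and FCGRT, the heavy chain of the neonatal Fc receptor that pairs with beta-2-microglobulin, by 0.65 (SE 0.07). ULBP3, another NKG2D ligand, had 11.2, 11.7 and 10.5 CPM in wild-type cells and 7.69, 7.63 and 7.62 CPM in EAF1-mutant cells and fell by 0.54 (SE 0.07). NKG2D ligands thus moved in both directions, and ULBP2, the most abundant of the list per length, did not pass (log2 fold change -0.19, SE 0.09).

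Of 17 enhanceosome and regulator genes, 9 fell and 2 rose at an adjusted p under 0.01, and the median log2 fold change was -0.15. Just 1 was called in each direction. NFYC, a subunit of the CCAAT-binding factor NF-Y, had 37.3, 36.3 and 39.6 CPM in wild-type cells and 58.6, 61.0 and 62.0 CPM in EAF1-mutant cells and rose by 0.68 (SE 0.04). Its partners NFYA and NFYB fell by 0.27 (SE 0.05) and 0.25 (SE 0.05), so the subunits of this trimer went apart. EZH2, the methyltransferase of Polycomb repressive complex PRC2, had 104, 110.0 and 107 CPM in wild-type cells and 75.2, 73.3 and 73.7 CPM in EAF1-mutant cells and fell by 0.53 (SE 0.04). RFX5, the most abundant of the list per length, fell by 0.25 (SE 0.04), and CIITA, the class II transactivator, by 0.44 (SE 0.05).

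Interferon pathway genes had no shared direction. Of 9 receptor and signaling genes, 2 rose and 3 fell at an adjusted p under 0.01, against 20.5% and 21.1% of all tested genes. Their log2 fold changes were under 0.5 in size, among them STAT2 at 0.48 (SE 0.04), JAK1 at -0.35 (SE 0.04) and IFNGR1, the most abundant per length, at -0.23 (SE 0.04). Of 16 interferon-induced genes, 6 lay under the filter, including MX1, OAS1, OAS2, OAS3 and CXCL10. The list summed to 15.3, 14.7 and 15.1 CPM in wild-type cells and 15.4, 16.3 and 15.7 CPM in EAF1-mutant cells. IFI6 rose by 0.61 (SE 0.13), IFIT1 fell by 0.69 (SE 0.12), and ISG15, the most abundant per length, rose by 0.33 (SE 0.10).

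Class II chain genes share the RFX and NF-Y factors with class I. The list has 10 such genes and leaves out HLA-DQB2, described above, and HLA-DRB5, which were called higher as well, HLA-DRB5 with a log2 fold change of 1.45 (SE 0.35). Of 9 listed genes tested, 8 were called higher (against 11% of all tested genes), and the summed level of the list went from 19.8, 17.7 and 17.0 CPM in wild-type cells to 39.6, 39.1 and 38.6 CPM in EAF1-mutant cells. After HLA-DOA, the log2 fold changes within the list were greatest for HLA-DQA1, at 1.82 (SE 0.22), HLA-DPB1, at 1.38 (SE 0.40), HLA-DPA1, at 1.32 (SE 0.10), and HLA-DRB1, at 1.07 (SE 0.15). HLA-DQB1, the most abundant of the list per length, rose by 0.92 (SE 0.08), while HLA-DOB, a partner of HLA-DOA, fell by 0.50 (SE 0.14) and HLA-DRA lay under the filter.

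**Figure D5:**
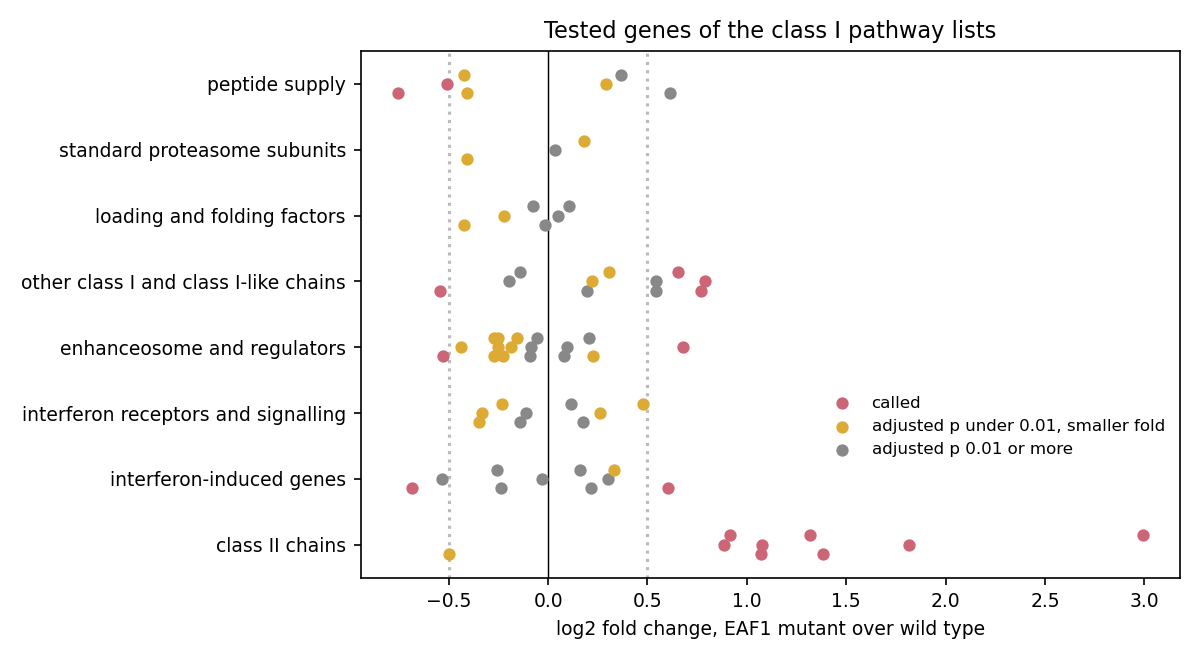
Log2 fold change (horizontal axis) of each tested gene of the 8 class I pathway lists (rows), colored by call, with dotted lines at 0.5 in size; points are offset vertically to keep them apart. The listed class II chains, without HLA-DQB2 and HLA-DRB5, reached 2.99, and peptide supply genes ranged from -0.76 for PSMB10 to 0.61 for PSMB9, which did not pass.

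The genes most like HLA-B over the 6 libraries, by Pearson's r of log2 CPM among 19217 other tested genes of at least 1 CPM, were MTX1P1 (r = 0.995), GALNT18 (r = 0.994) and PLXNA1 (r = 0.994). For NLRC5, among 19218 such genes, they were LINC02614 (r = 0.982), ENSG00000278878 (r = 0.975) and STT3A (r = 0.965). These describe profiles over libraries of both lines, and no test was made.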

How the data were processed

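Libraries of total RNA freed of ribosomal RNA, 3 from wild-type and 3 from EAF1-mutant HEK293T cells, were grouped by their labels. Read trimming, HISAT2 mapping to GRCh38 and Rsubread counting over Ensembl genes were done by the authors, who deposited counts per gene without normalization. Of 58395 genes, 57754 matched GENCODE release 44, from which symbols, positions and exon lengths were taken; the other 641 held 2.81% of the counts.

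These deposited counts were scaled by TMM, filtered by filterByExpr and fitted with quasi-likelihood models in edgeR 4.0.16 (R 4.3.3), with Benjamini-Hochberg adjusted p-values over all 28025 tested genes. Steps were tested on simulated data. Library totals of 52541541 to 66611451 counts allowed genes under 1 CPM to be tested. The members and lists were chosen with earlier results of these data known. Named were all members; of each list the called genes, at most 5 by size, and the most abundant; in the MHC the 3 largest called rises and falls with a mean of at least 1 CPM and no overlap; and the 3 genes most like HLA-B and NLRC5. Other list genes, HLA-DRB5, TAPBP neighbors, overlapping genes and marker genes were named after their values were seen. Some genes of the lists are not reported here. Alternatives were DESeq2 1.42.0, library totals, other filters, a replicate block, each library left out, and other thresholds.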

Additional observations from a re-analysis of the deposited data

How the results depend on the processing

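The 9 members' log2 fold changes were refitted with other tests, scalings, filters and libraries, which gave 98 values. Of these, 93 kept their direction and their side of an adjusted p of 0.01. The 3 that changed sign were TAP2 (0.016) and NLRC5 (0.010) with library totals alone and NLRC5 (0.055) without wild-type replicate 1, none of which passed the test in either fit. With library totals alone HLA-B no longer passed, HLA-E did, the summed heavy chains had -0.13 and did not pass, the members' median was 0.016, and 2 members were called higher. With a filter of at least 1 CPM in at least 3 libraries NLRC5 was lost and the median of the rest was 0.016. The heavy chains on their own counts gave 0.10 for HLA-E, opposite to the sum, and -0.15 for HLA-F, which did not pass. Leaving out 1 library moved the members' median log2 fold change between -0.12 and 0.055, that of NLRC5 between -0.31 and 0.055, and the number called lower between 0 and 1, with HLA-C called without wild-type replicate 2. At an adjusted p under 0.05 with no fold limit, 14420 genes passed over all, 3 members were higher and 2 lower, and 91 genes of the MHC and 47 of the pathway lists passed. At a log2 fold change over 1 the same numbers were 2150 over all, 0 members higher, 18 in the MHC and 6 in the lists. For these threshold changes the cause is the rule itself, and for the other changes the cause was not tested.

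Pairing of the libraries by replicate number was not seen: correlations of same-numbered deviations were -0.0025, -0.10 and 0.03, and no wild-type library correlated best with its own number. With 3 libraries per line, each set against its own group mean, this check cannot show that the libraries were unpaired. With the replicate block 5686 genes were called over all genes in place of 5695, and 1 member was called higher in both fits. The ratios of heavy chains to B2M and of TAP1 to TAP2, added after seeing the data, ran from -0.50 to -0.39 and from 0.46 to 0.55 with 1 library left out. NLRC5 had the fewest counts of the members, at 23 to 41 per library.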
